A study of Caenorhabditis elegans with 6 samples.

Results

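The genes described here run from the insulin receptor of Caenorhabditis elegans to the transcription factor DAF-16, with 3 genes often read as reporters of DAF-16 activity. They were taken by gene symbol: daf-2, age-1, daf-18, akt-1, akt-2 and daf-16 of the pathway, and dod-3, lea-1 and icl-1 as reporters. All 9 were found, each with 1 probe set of the 29317 on the array, and the rule itself is a match of symbols. Transcripts were measured on Affymetrix arrays in whole worms of the wild-type strain N2, labelled as young adults 3 days after hatching. Animals were placed 16 to 18 h after hatching in S medium, a liquid culture, for 48 h at 20 °C. The 3 groups, of 2 arrays each, received water, 100 µM Ponceau Red or 100 µM tartrazine, both synthetic azo dyes used to colour food. Arrays carry here the first number in their deposited column names, which gives 2 and 3 in the Ponceau Red group and 1 and 2 in the other groups.

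In this pathway insulin-like peptides bind DAF-2, which recruits the phosphatidylinositol 3-kinase AGE-1. The lipid that AGE-1 makes activates the kinases AKT-1 and AKT-2, and the phosphatase DAF-18 removes that lipid. Active AKT kinases phosphorylate DAF-16, a FOXO factor, and keep it out of the nucleus, so that less signal from DAF-2 means more DAF-16 in the nucleus. The pathway is known for its control of dauer entry, stress resistance and lifespan. Most of its steps are changes of phosphorylation and location, which transcript levels do not report.

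The labelled stage was checked on gene lists for yolk, germ line and larval cuticle, given as the log2 of the summed linear signals of each list. The 6 yolk genes summed to 4.74 and 4.65 in water, 13.31 and 4.59 in Ponceau Red arrays 2 and 3, and at least 12.40 in both tartrazine arrays. The 11 germ line and oocyte genes summed to 6.86 and 6.05, 11.23 and 5.94, and 11.01 and 11.06 in the same order. The 8 larval cuticle and moulting genes summed to 11.68 and 11.53 in water, 8.32 and 8.92 in Ponceau Red and 7.62 and 7.65 in tartrazine. Yolk and germ line signal was thus low in both water arrays and Ponceau Red array 3 and high in the other 3 arrays. A further array derived below and taken as a control, not among these 6 arrays, stood high on both lists. The larval cuticle sum was lower in every colorant array, but not every gene was. The moulting gene nas-37 read 4.99 and 5.27 in water, 6.07 and 3.78 in Ponceau Red, and 5.89 and 6.30 in tartrazine. Of 3 adult cuticle genes col-19 read 3.19 and 3.20, 8.12 and 2.40, and 6.93 and 7.91 in the same order. The others, bli-1 and bli-2, stayed between 1.68 and 2.78, and 0 of 3 passed. Of the larval cuticle list dpy-5, dpy-13, rol-6, sqt-1 and sqt-2 fell in both colorants (limma adjusted p from 0.00503 to 0.0372), 5 of 8. Of all tested probe sets 2.75% fell in Ponceau Red and 3.86% in tartrazine. Without either water array 0 probe sets passed for either colorant in limma, so these 5 calls ended too. Over the tested probe sets Pearson's r was 0.844 for the pair of Ponceau Red arrays and 0.991 for Ponceau Red array 2 with tartrazine array 2. In whole animals, fewer cells of a type and less RNA per cell cannot be told apart.

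With all 6 arrays in 1 limma fit, 0 of the 9 genes passed for Ponceau Red against water, where 2.89% of the 27568 tested probe sets passed. For tartrazine against water 0 of 9 passed, beside 4.38% of probe sets. For Ponceau Red against tartrazine 0 of 9 passed, beside 0% of probe sets. At an unadjusted p under 0.05, in limma, 2 of 9 lay in the first comparison (14.9% of probe sets), 5 in the second (28.6%) and 2 in the third (4.51%). Passing means a Benjamini-Hochberg adjusted p under 0.05 over all tested probe sets. Leaving out 1 array altered these counts. Without 1 Ponceau Red array that group holds 1 array, whose own spread is not measured. Differences of Ponceau Red are then given below as sizes only. For tartrazine against water, leaving out either Ponceau Red array gives the same fit as the 4 water and tartrazine arrays alone. In that 1 fit 5 of 9 passed, beside 35.1% of probe sets. Tartrazine differences said below to pass without either Ponceau Red array all come from it and are not separate checks.

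**Figure D1:**
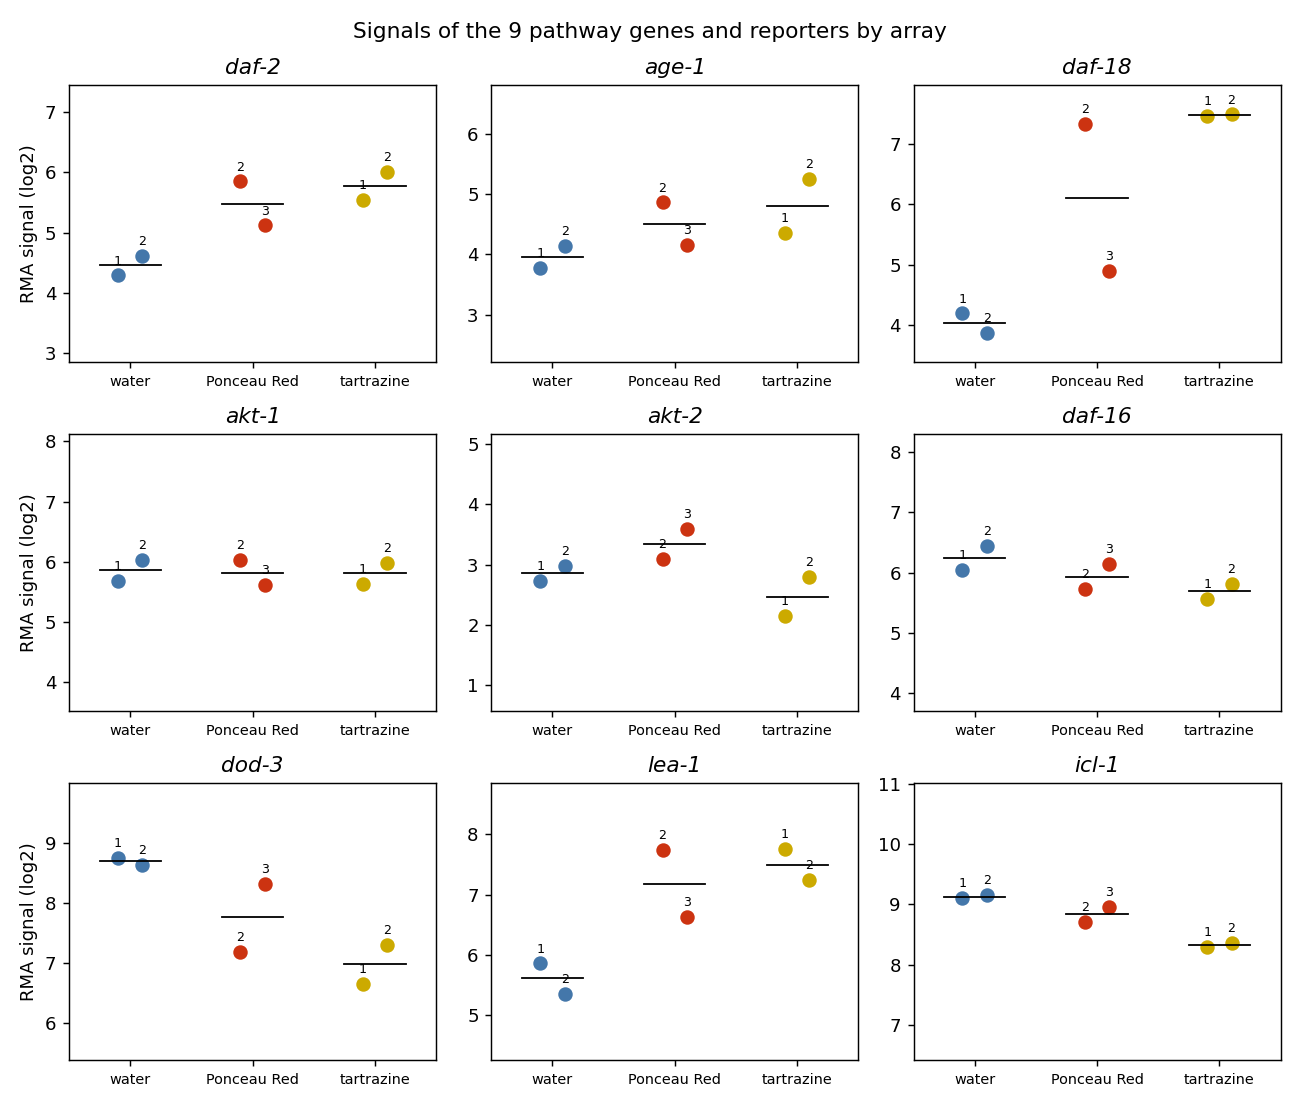
RMA signal (log2) of each gene in each of the 6 arrays, by group; the digit over a point is the array number and the line is the mean of the 2 arrays. In daf-18, lea-1 and dod-3 Ponceau Red array 2 sits beside the tartrazine arrays and array 3 between them and water, while akt-1 stays within 0.42 log2 over all arrays; each panel spans the same number of log2 units.

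The receptor gene daf-2 (chromosome III; chromosomes are those of the RefSeq assembly WBcel235, and no positions are given because the files name no build) encodes the worm's counterpart of the insulin and IGF receptors. Its signal was 4.29 and 4.62 in water, 5.85 and 5.12 in Ponceau Red arrays 2 and 3, and 5.54 and 6.01 in tartrazine. Both colorants lay above both water arrays and overlapped each other. The difference from water in Ponceau Red was 1.03 ± 0.33 log2, or 2.04-fold (SE of the fit, with 2 arrays in each group; limma adjusted p = 0.262). It was 1.32 ± 0.33 log2 in tartrazine (2.49-fold; limma adjusted p = 0.101). The tartrazine difference passed without either Ponceau Red array (limma adjusted p = 0.00593), and the Ponceau Red one, at 1.39 log2, without Ponceau Red array 3 (limma adjusted p = 0.0148), when 4 of 9 genes passed beside 26.1% of probe sets. Without Ponceau Red array 2 it was 0.66 log2 (limma adjusted p = 0.228).

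The gene age-1 (chromosome II) encodes the catalytic subunit of the phosphatidylinositol 3-kinase. It read 3.77 and 4.14 in water, 4.86 and 4.16 in Ponceau Red, and 4.35 and 5.25 in tartrazine. Ponceau Red array 3 lay almost level with water array 2, and the tartrazine arrays differed from each other by more than the group means did. Differences from water were 0.56 ± 0.41 log2 in Ponceau Red and 0.84 ± 0.41 in tartrazine (limma adjusted p = 0.597 and 0.253). They ran from 0.21 to 0.90 and from 0.40 to 1.29 log2 with 1 array left out, and the second deposited table gave 0.50 for tartrazine. Its regulatory partner gene aap-1, which encodes the adaptor subunit, read 3.04 and 2.92 in water, 3.75 and 2.90 in Ponceau Red, and 3.38 and 4.03 in tartrazine. It differed from water by 0.34 ± 0.38 and 0.72 ± 0.38 log2 (limma adjusted p = 0.714 and 0.278).

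The phosphatase gene daf-18 (chromosome IV), which acts against AGE-1, had the widest range of the 9 genes, 3.62 log2 over the 6 arrays. Of all tested probe sets 5.1% had a wider one. Its signal was 4.19 and 3.87 in water, 7.33 and 4.89 in Ponceau Red, and 7.46 and 7.49 in tartrazine. The tartrazine arrays lay within 0.03 log2 of each other, and neither Ponceau Red array overlapped with water. Tartrazine exceeded water by 3.45 ± 0.81 log2 (10.9-fold; limma adjusted p = 0.0906). This passed without either Ponceau Red array (limma adjusted p = 7.51e-05), since the gap between the Ponceau Red arrays, a SD of 1.73 log2 against 0.02 in tartrazine, then left the fit. Ponceau Red exceeded water by 2.08 ± 0.81 log2 (4.23-fold; limma adjusted p = 0.341). That difference was 3.30 log2 without Ponceau Red array 3 and 0.86 without array 2. The arrays with high daf-18 signal were the 3 with high yolk and germ line signal, and the part of stage in this difference was not tested.

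The next members encode the AKT kinases, which phosphorylate DAF-16. For akt-1 (chromosome V) the arrays read 5.68 and 6.03 in water, 6.03 and 5.62 in Ponceau Red, and 5.64 and 5.98 in tartrazine. All 3 groups overlapped, and 81.7% of tested probe sets had a wider range over the 6 arrays. The 95% interval of its difference from water ran from -0.69 to 0.62 log2 in Ponceau Red and from -0.70 to 0.61 in tartrazine, around values of -0.04 and -0.05 that turned to 0.19 and 0.16 with each array centred on its median. The gene akt-2 (chromosome X) read 2.73 and 2.98 in water, 3.09 and 3.59 in Ponceau Red, and 2.15 and 2.80 in tartrazine. These were the lowest signals of the 9 genes, near the array medians of 2.13 to 2.40. Differences from water were 0.49 ± 0.31 and -0.38 ± 0.31 log2 (limma adjusted p = 0.548 and 0.47), and with 1 array left out they ran from 0.24 to 0.73 and from -0.70 to -0.06. Ponceau Red lay above tartrazine with no overlap, by 0.87 ± 0.31 log2 (limma adjusted p = 0.681). Without Ponceau Red array 2 that difference was 1.12 log2.

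Kinases that act beside AKT were read from the same fit. The gene pdk-1, whose kinase activates AKT, read 5.96 and 5.93 in water, 5.60 and 6.74 in Ponceau Red, and 5.20 and 5.22 in tartrazine. Tartrazine lay -0.73 ± 0.40 log2 from water (limma adjusted p = 0.292), a difference that passed without either Ponceau Red array (limma adjusted p = 0.0156). The gene sgk-1, of a related kinase, read 4.92 and 5.60 in water, 5.39 and 4.63 in Ponceau Red, and 4.76 and 5.24 in tartrazine, so all groups overlapped.

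The gene daf-16 itself (chromosome I) encodes the FOXO factor at the end of the pathway, in several isoforms that 1 probe set cannot tell apart (RefSeq lists 11 messenger RNAs). Its signal was 6.05 and 6.44 in water, 5.73 and 6.14 in Ponceau Red, and 5.57 and 5.82 in tartrazine. Tartrazine lay below water with no overlap and Ponceau Red spanned the gap between them. The difference from water was -0.31 ± 0.25 log2 in Ponceau Red (95% interval -0.96 to 0.33; limma adjusted p = 0.614). In tartrazine it was -0.55 ± 0.25 log2 (95% interval -1.20 to 0.09; limma adjusted p = 0.22). Leaving out 1 array gave -0.52 to -0.11 log2 in Ponceau Red and -0.75 to -0.36 in tartrazine. Centring each array on its median gave -0.09 and -0.35 log2, and the second deposited table gave -1.05 for tartrazine (limma adjusted p = 0.0658). By mean the order from high to low was water, Ponceau Red, tartrazine, and neighbours in that order overlapped.

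Of the reporters, dod-3 (chromosome V) is a gene whose transcript depends on daf-16. It read 8.74 and 8.63 in water, 7.19 and 8.32 in Ponceau Red, and 6.65 and 7.30 in tartrazine. Every colorant array lay below both water arrays, and Ponceau Red array 3 lay nearest to them. Tartrazine differed from water by -1.71 ± 0.45 log2 (3.27-fold lower; limma adjusted p = 0.106), and this passed without either Ponceau Red array (limma adjusted p = 0.00277). Ponceau Red differed by -0.93 ± 0.45 log2 (limma adjusted p = 0.438), or by -1.49 without array 3 and -0.37 without array 2.

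The gene icl-1 (chromosome V) encodes the glyoxylate cycle enzyme that lets worms make sugar from fat. It read 9.11 and 9.15 in water, 8.71 and 8.96 in Ponceau Red, and 8.29 and 8.36 in tartrazine. The 3 groups did not overlap, in the order water, Ponceau Red, tartrazine from high to low. The tartrazine difference was -0.81 ± 0.17 log2 (1.75-fold lower; limma adjusted p = 0.0724), the lowest adjusted p of the 9 genes in any of the 3 comparisons. It passed without either Ponceau Red array (limma adjusted p = 0.0108) and, at -1.60 log2, in the second deposited table (limma adjusted p = 0.0174; 1 of 9 genes, beside 10.2% of probe sets), whose tartrazine columns lie lower against its water columns by a median of -0.24 log2. The Ponceau Red difference was -0.29 ± 0.17 log2 (limma adjusted p = 0.509). Median centring of the arrays made it -0.07 log2, and leaving out Ponceau Red array 2 made it -0.17.

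The gene lea-1 (chromosome V) encodes a hydrophilic protein of the late embryogenesis abundant kind, a group known for protection in drying. RefSeq lists 17 messenger RNAs for it, which the probe set reads together. It went the other way from dod-3 and icl-1, reading 5.86 and 5.36 in water, 7.74 and 6.63 in Ponceau Red, and 7.76 and 7.25 in tartrazine. All 4 colorant arrays lay above both water arrays and the colorants overlapped. Differences from water were 1.57 ± 0.45 log2 in Ponceau Red (2.98-fold; limma adjusted p = 0.205) and 1.89 ± 0.45 in tartrazine (3.71-fold; limma adjusted p = 0.0925). The first was 2.13 log2 without Ponceau Red array 3 and 1.02 without array 2. The second passed without either Ponceau Red array (limma adjusted p = 0.00219).

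**Figure D2:**
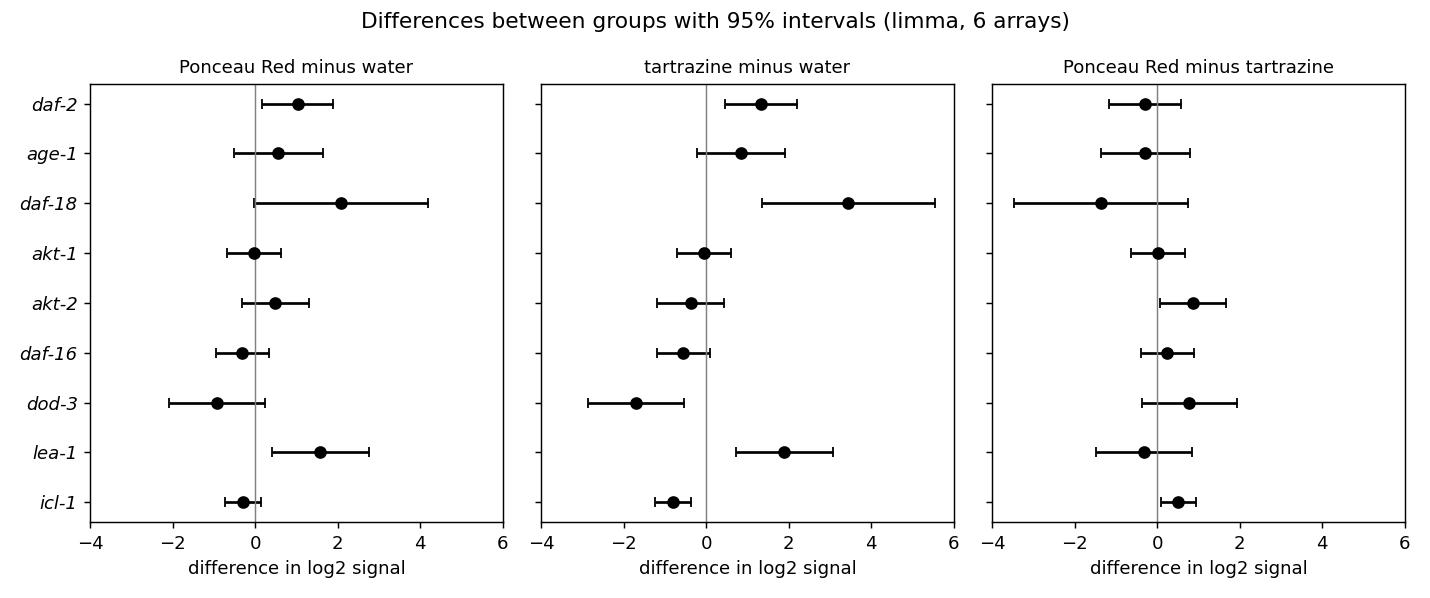
Differences in log2 signal between groups for the 9 genes, with 95% intervals from limma over 6 arrays (points are estimates, bars are intervals, the grey line is 0). For tartrazine the intervals of daf-2, daf-18 and lea-1 lie above 0 and those of dod-3 and icl-1 below it, yet 0 of 9 passed after adjustment.

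Counted by overlap, 7 of the 9 genes had Ponceau Red arrays wholly above or wholly below the water arrays, 5 above and 2 below. Of all probe sets 47.8% did so (24.8% above and 23.1% below). For tartrazine 7 of 9 did, 4 above and 3 below, beside 68% of probe sets (33.7% above and 34.3% below). The tartrazine count of the 9 genes was therefore close to that of all probe sets. Of the 5 genes above water in Ponceau Red, age-1 cleared it narrowly (4.16 beside 4.14), as did akt-2 (3.09 beside 2.98). Between the colorants, at the same dose and time, the arrays did not overlap for daf-18, akt-2 and icl-1, 3 of 9, beside 35.5%. The 95% interval of Ponceau Red minus tartrazine ran from -3.47 to 0.74 log2 for daf-18, from 0.06 to 1.68 for akt-2 and from 0.08 to 0.95 for icl-1. For the receptor gene daf-2 it ran from -1.16 to 0.58 and for daf-16 from -0.40 to 0.88, so differences of these sizes between the dyes remain possible. The 9 genes were compared in 1 pair of dyes, and without Ponceau Red array 2, 3 of them passed (daf-18 lower, akt-2 and dod-3 higher in Ponceau Red), beside 27.7% of probe sets.

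The Ponceau Red arrays held different positions between water and tartrazine in the 4 genes whose tartrazine and water means lay more than 1 log2 apart. With the water mean at 0% and the tartrazine mean at 100%, Ponceau Red array 2 lay at 105.7% for daf-2, 95.8% for daf-18, 87.3% for dod-3 and 112.4% for lea-1. Array 3 lay at 49.9%, 25%, 21.5% and 53.9% in the same order. Array 3 was thus nearer to water than array 2 in all 4 genes, which is also the order of the yolk and germ line sums. The whole arrays held the same order, so it is not particular to these genes. Over all tested probe sets Pearson's r with the 2 water arrays was 0.828 and 0.840 for Ponceau Red array 2. For array 3 it was 0.915 and 0.931. The part of stage in the differences of these genes was not tested.

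A further array, taken here as a control, bears on the direction of these differences. The sums of squares and ratios in the authors' deposited table for Ponceau Red fit 3 control and 2 Ponceau Red arrays. They fit 2 control and 3 Ponceau Red arrays equally well, so they do not show to which group the further array belonged. Taken as a control, its signal follows from each ratio and the 4 arrays at hand. The implied control values hold under that reading only. It is a derived value, from a separate run of the authors' processing, and the array behind it was not analysed here. For daf-18 the implied control signal was 8.01, above every colorant array, and for lea-1 8.30, also above them all. For dod-3 it was 4.84 and for icl-1 6.98, both below every colorant array. In these 4 genes the implied control lay on the far side of the colorants from the 2 water arrays. For daf-2 the implied control was 4.94, nearer to water, and for age-1 5.55, above all arrays. For daf-16 it was 6.05, level with water array 1, for akt-1 5.65 and for akt-2 3.49. On the stage lists the implied control lay above the water mean by a median of 7.70 log2 for yolk and 4.79 for germ line and oocyte. All 6 yolk genes and all 11 germ line and oocyte genes had it nearer to tartrazine than to water. The larval cuticle median lay at -2.49 log2 from the water mean, with 5 of 8 genes nearer to tartrazine.

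The error sum of squares recomputed with the implied control was 13.60 for daf-18, beside 13.40 in the authors' deposited table, and 10.53 for dod-3, beside 10.98 there. For lea-1 it was 5.58, beside 4.71 in the authors' deposited table, and for icl-1 3.11, beside 2.90. For age-1 it was 2.01, beside 2.02. The smaller sums matched less well, at 0.48 beside 0.70 for daf-2 and 0.18 beside 0.07 for akt-1. For akt-2 it was 0.43, beside 0.16, and for daf-16 0.19, beside 0.12. The median absolute difference over all tested probe sets was 0.20, so sums this small check the implied value only loosely. A further Ponceau Red array derived from the same ratio would give the same sums. The sums therefore do not check whether the further array was a control. Of the 9 genes 6 had an implied control nearer to the tartrazine mean than to the water mean, as had 74.2% of tested probe sets. The authors' deposited table gives a Ponceau Red over control ratio of 1.69 for daf-18 (unadjusted p = 0.722) and 1.60 for lea-1 (unadjusted p = 0.596). In the authors' deposited table the ratios for dod-3 and icl-1 are 1.28 and 1.34, above 1 (unadjusted p = 0.853 and 0.669). The 2 water arrays alone put Ponceau Red below water in both genes. The authors' deposited table gives 1.82 for daf-2 (unadjusted p = 0.144), the ratio of the 9 farthest from 1, 1.02 for age-1 and 0.842 for daf-16. The authors' deposited tartrazine table lists 1746 probe sets, with unadjusted p up to 0.05, where the array holds 29317. Of the 9 genes 0 are among them, which at so small a share says little about these genes.

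**Figure D3:**
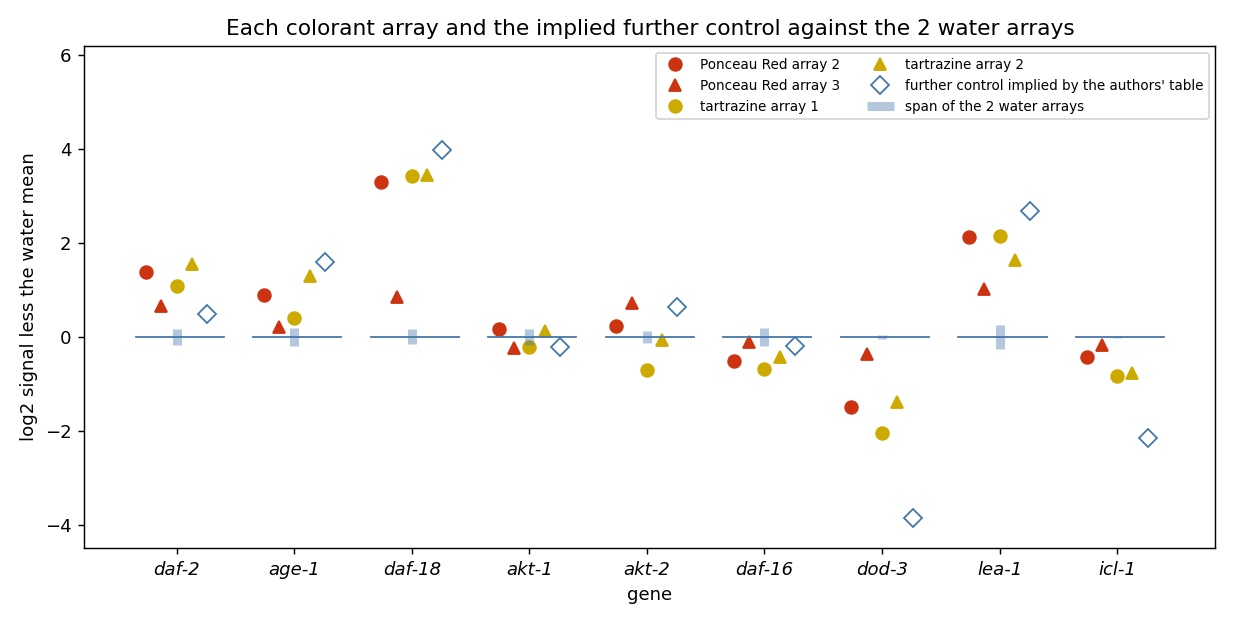
Log2 signal of each gene, less the mean of the 2 water arrays, in the 4 colorant arrays and in an implied further array. The authors' deposited table gave the implied array, which is taken here as a control, and the blue bar is the span of the water arrays. The implied control lies beyond the colorant arrays in age-1, daf-18, lea-1, dod-3 and icl-1 and close to water in daf-16.

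The wider pathway was read from lists written from textbook knowledge. Of 12 other kinases and adaptors, which besides aap-1, pdk-1 and sgk-1 include the TOR kinase gene let-363 and its partners, 0 passed in either comparison with water. Median differences from water were 0.07 log2 (Ponceau Red) and -0.65 log2 (tartrazine), beside 0.06 and 0.02 over all probe sets. Of these 12, 4 had tartrazine arrays wholly above water and 6 wholly below, beside 33.7% and 34.3% of all probe sets. Of 17 regulators and partners of DAF-16, such as the 14-3-3 genes ftt-2 and par-5 that hold it in the cytoplasm, 0 passed in limma. Their medians were 0.16 and -0.02 log2, and 6 lay wholly above and 7 wholly below water in tartrazine, where the shares of all probe sets were again 33.7% and 34.3%. Chosen after its values were seen, ftt-2 read 9.22 and 9.13 in water, 8.31 and 9.04 in Ponceau Red and 7.87 and 7.88 in tartrazine (limma adjusted p = 0.078 for tartrazine).

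Among 23 measured class I targets, genes known to be raised when DAF-2 signalling is low, 1 rose and 0 fell in Ponceau Red, and 0 rose and 1 fell in tartrazine. Of all probe sets 0.138% rose and 2.75% fell in Ponceau Red, and 0.519% rose and 3.86% fell in tartrazine. Each of the calls among the targets rests on 1 gene. The median of these genes lay at -0.36 log2 for Ponceau Red and at -0.71 for tartrazine, beside 0.06 and 0.02 over all probe sets, and 8 and 9 of the 23 differences were positive. The superoxide dismutase gene sod-3, a common reporter of DAF-16, read 7.02 and 7.05 in water, 3.06 and 7.63 in Ponceau Red, and 3.67 and 3.26 in tartrazine. Ponceau Red array 3 thus stood with water and array 2 with tartrazine, and the implied control was at 3.35. Its differences of -1.69 ± 1.49 and -3.57 ± 1.49 log2 did not pass (limma adjusted p = 0.651 and 0.198). The tartrazine difference passed without either Ponceau Red array (limma adjusted p = 8.17e-05). In Ponceau Red it turned to 0.59 log2 without array 2 and was -3.98 without array 3. The metallothionein gene mtl-1, which binds metals, read 8.68 and 9.04 in water, 6.50 and 5.03 in Ponceau Red, and 7.57 and 8.06 in tartrazine. It was low in both Ponceau Red arrays, by -3.09 ± 0.53 log2 (limma adjusted p = 0.0684), and read 5.72 in the implied control. That difference was -3.83 log2 without Ponceau Red array 2 and -2.36 without array 3. With an intensity trend it passed (limma adjusted p = 0.0322). It did not pass in the 4 water and Ponceau Red arrays alone (limma adjusted p = 0.201), with centring (0.105) or with low signals filtered out (0.08). Nor did it pass in the second deposited table (limma adjusted p = 0.08, and 0.167 with the replicate block). The tartrazine difference, -1.05 ± 0.53 log2 (limma adjusted p = 0.268), passed without either Ponceau Red array (0.0168).

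The class I gene that fell in tartrazine was cyp-35B1, a cytochrome P450 gene, by 4.87 ± 0.63 log2 (29.2-fold; limma adjusted p = 0.0288). Its arrays gave 8.47 and 8.80 in water, 4.87 and 6.70 in Ponceau Red, and 3.54 and 3.99 in tartrazine, and the implied control was at 3.76, level with tartrazine. The call ended without any 1 of the water or tartrazine arrays (limma adjusted p from 0.169 to 0.22). The gene that rose in Ponceau Red was lys-7, a lysozyme gene of the immune response, by 1.61 ± 0.21 log2 (limma adjusted p = 0.0325). Its arrays gave 6.76 and 6.90 in water, 8.58 and 8.29 in Ponceau Red and 7.76 and 8.10 in tartrazine. Here the implied control, at 6.71, lay with the water arrays. The call ended in a fit of the 4 water and Ponceau Red arrays alone (limma adjusted p = 0.106), which leaving out either tartrazine array repeats. It also ended with low signals filtered out (limma adjusted p = 0.1) and without either water array, at 1.54 and 1.68 log2. Of the class I targets 19 of 23 had an implied control nearer to tartrazine than to water, beside 74.2% of all probe sets.

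Class II targets, known to be lowered when DAF-2 signalling is low, did not pass in limma for any of 9 genes. The median lay at -0.04 log2 for Ponceau Red and at 0.09 for tartrazine, over values that ran from -1.73 to 7.83 log2 in tartrazine. The highest were the yolk genes vit-2 and vit-5, which the yolk list also holds.

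**Figure D4:**
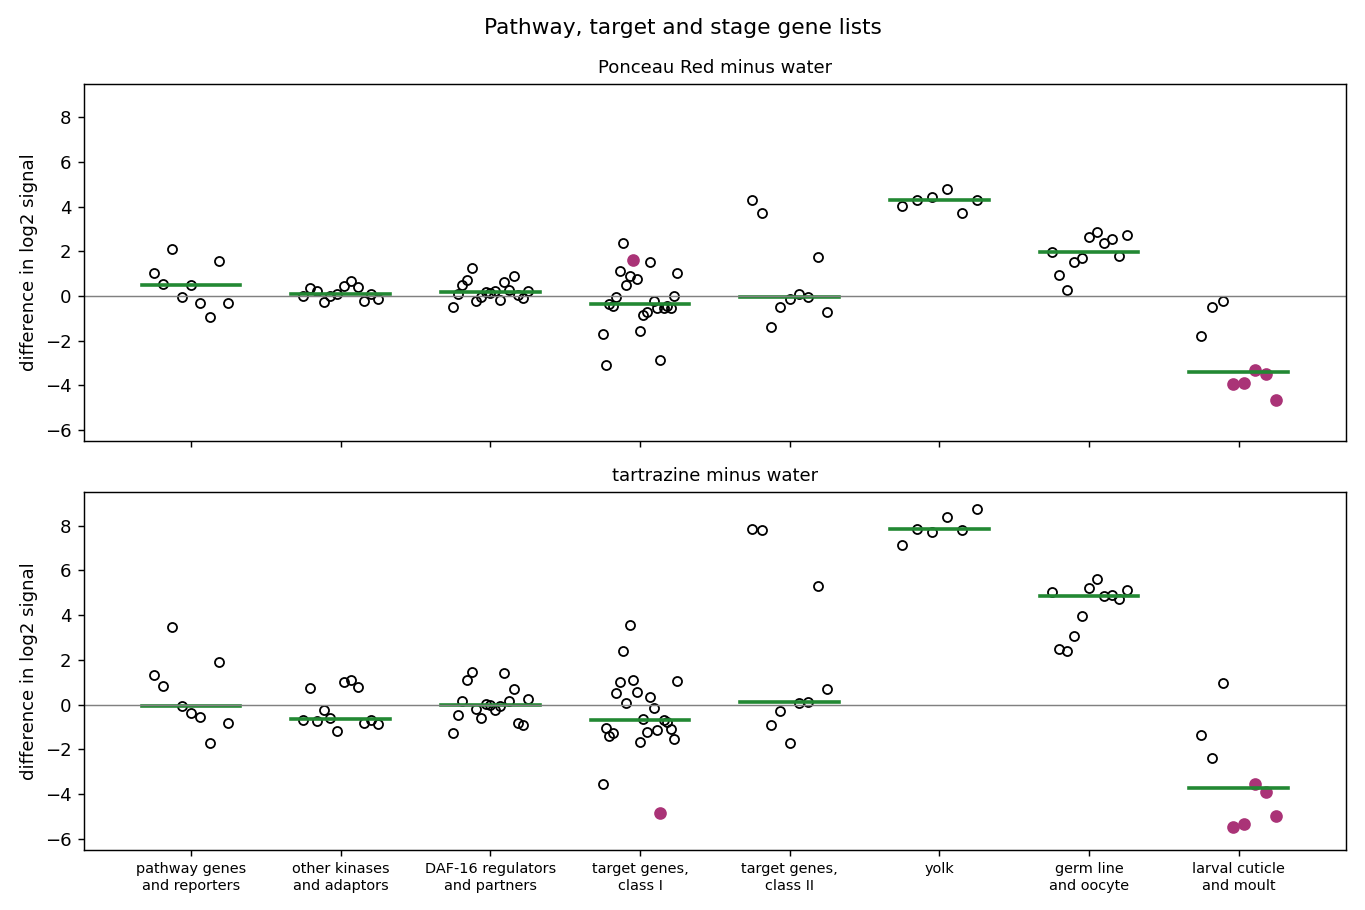
Differences from water in log2 signal for the 9 genes and for 7 gene lists, in Ponceau Red (top) and tartrazine (bottom); filled points passed at a limma adjusted p under 0.05, open points did not, and green lines are medians. The 9 genes scatter around 0, while yolk and germ line genes lie above it and larval cuticle genes mostly below.

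For the 6 genes with a range over 1 log2, the coding probe sets with the nearest profile were found by the root mean square difference of the 6 signals, each less its own mean. The profile of daf-18 was nearest to those of K08E4.2, ZK1307.9 and R10D12.13, at 0.148 to 0.182 log2, and 454 of 19503 probe sets lay within 0.5 log2. For lea-1 the nearest were ZK1010.10, M142.8 and T07C4.12, at 0.187 to 0.208 log2, with 1036 within 0.5. For dod-3 they were suox-1, faah-1 and T27F6.8, at 0.095 to 0.102 log2, with 1970 within 0.5. For daf-2 they were npp-5, him-17 and dis-3, at 0.055 to 0.064 log2, and 3625 lay within 0.5. For age-1 ubh-4, rom-4 and C50F4.16 came nearest, among 6013, and for akt-2 Y40C5A.4, pes-9 and del-6, among 7989. These counts rise as a gene's own range over the arrays falls, from 3.62 log2 for daf-18 to 1.44 for akt-2. For age-1 and akt-2 even a flat profile lies within 0.5 log2. The counts therefore do not compare likeness between the genes, and all profiles rest on the same 6 arrays.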

How the data were processed

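Whole-worm RNA (3.5 ng per sample) was measured on 6 arrays, 2 per group, each sample grouped by its title. The values are log2 RMA signals per probe set that the authors deposited for all 6 arrays. RMA is named in the submitters' processing notes, without a version. Another log2 table from the authors, with 1 column for each labelled trial, served as an alternative (the second deposited table). The authors also deposited comparison tables with a linear ratio, an unadjusted p-value and F scores with sums of squares as scores.

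Of 29317 probe sets 27568 had a gene name, matched by accession to RefSeq (24021) or by symbol (3301), or taken from the deposited table (246), and were tested; 1749 unnamed ones were left out. All 6 arrays entered 1 fit by lmFit and eBayes (limma 3.58.1, R 4.3.3) with 3 two-sided contrasts, no block and no filter. Errors are standard errors of the fit, intervals are at 95%, and the 2 arrays per group limit the precision. The p-values measure the spread between these arrays, and a group left with 1 array adds no spread of its own. The fit was tested on simulated data. The 9 genes, the lists and the tests were chosen with earlier results of these data known.

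By the rule for names, the text names the 9 genes, up to 3 genes per list that passed, sod-3, mtl-1, aap-1, pdk-1 and sgk-1, and the 3 genes nearest in profile. The cuticle and moulting genes, let-363, par-5, ftt-2, vit-2 and vit-5 stand outside that rule and were chosen after their values were seen. Of the listed genes, hsp-16.11 was not matched. Alternatives were array centring, the second table, a block, 4 arrays per comparison, a filter at 3 log2, an intensity trend and leaving out each array.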

Additional observations from a re-analysis of the deposited data

How the results depend on the processing

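Of the 9 genes 0 passed in the 3 comparisons over 6 arrays, and this count was also 0 with each array centred on its median, with an intensity trend and, over the 8 genes other than akt-2 that passed the filter, with the filter. For tartrazine against water it was 5 in a fit of the 4 arrays alone, 1 in the second deposited table, 2 in that table with the replicate block, and 0 to 5 leaving out 1 array; for Ponceau Red against water it was 0 to 4 and between the dyes 0 to 3 leaving out 1 array. The counts of all probe sets moved too. For Ponceau Red against water, 796 became 127 in 4 arrays, 250 with the filter (which tests 11106 probe sets), 263 in the second table with the replicate block and 0 to 7205 leaving out 1 array. For tartrazine against water, 1208 became 9690 in 4 arrays, 393 with the filter and 2801 in the second table. Leaving out either Ponceau Red array repeats the 4-array fit, for the 9 genes as well. Between the dyes 0 became 0 to 7638 leaving out 1 array. The lowest counts, 0, came without a water array, when 2248 and 2812 probe sets (Ponceau Red) and 3425 and 3967 (tartrazine) had an unadjusted limma p under 0.05; for tartrazine the count was also 0 without either tartrazine array, when 4001 and 4586 did. Centring moved the median difference of all probe sets to 0.28 log2 for Ponceau Red and 0.22 for tartrazine. This follows from the array medians that centring subtracts. They were 2.40 and 2.35 in water, 2.13 and 2.17 in Ponceau Red, and 2.22 and 2.13 in tartrazine. Why the colorant medians were lower was not tested.

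Signs turned as follows. For akt-1 they turned to 0.19 (Ponceau Red) and 0.16 (tartrazine) with centring and to 0.00 for Ponceau Red in the second table, with or without the replicate block. Between the dyes they turned in the second table, with or without the replicate block, to 0.09 for daf-2, 0.07 for age-1, 0.23 for lea-1 and 0.33 for aap-1. Leaving out 1 array, Ponceau Red minus water ran from -0.24 to 0.17 log2 for akt-1, -0.08 to 0.77 for aap-1, -0.34 to 0.80 for pdk-1, -0.63 to 0.13 for sgk-1 and -3.98 to 0.59 for sod-3. Tartrazine minus water ran from -0.22 to 0.13 for akt-1 and -0.59 to 0.08 for sgk-1. Ponceau Red minus tartrazine ran from -0.66 to 0.07 for daf-2, -0.74 to 0.16 for age-1, -0.20 to 0.22 for akt-1, -0.87 to 0.24 for lea-1, -0.81 to 0.05 for aap-1, -0.37 to 0.39 for sgk-1 and -0.40 to 4.17 for sod-3.

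The trials labelled 1 and 2 could be entered as a replicate block only in the second table, since the column names of the first do not carry them. There the trial differences of 2 groups had a Pearson's r of 0.04 (water with Ponceau Red), 0.16 (water with tartrazine) and -0.04 (the dyes). With 1 difference per group, these values cannot tell whether samples of the same trial share more than its number. Against the second table without it, the replicate block took Ponceau Red from 684 to 263 and tartrazine from 2801 to 1197, and for tartrazine the call of icl-1 stayed (adjusted p = 0.041, limma) and lea-1 passed. For lys-7 in Ponceau Red the replicate block ended the call at the same 1.61 log2 (limma adjusted p = 0.106, against 0.0358 without it). A group left with 1 array is assumed to vary like the others.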
